A study of Mus musculus with 18 samples.

Results

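Immediate early transcription factor genes are here the 10 genes Egr1, Egr2, Egr3, Fos, Fosb, Fosl2, Jun, Junb, Atf3 and Myc, chosen by gene symbol from the platform annotation of the array. Each of the 10 had exactly 1 row among the 24705 rows with a gene symbol, and all 10 were tested. Their expression was followed on 18 Affymetrix arrays of mouse bone marrow-derived macrophages, which are macrophages grown from bone marrow in medium with M-CSF (macrophage colony-stimulating factor) at 30 ng/mL. On day 4 the serum-containing medium was exchanged for medium with 10% mouse plasma, and RNA was taken 48 hours later, on day 6. The 4 groups differ in the plasma donor, and all donors had eaten a Western diet for 8 weeks: wild-type C57BL/6J mice (WT, 4 arrays), ApoE-KO mice without apolipoprotein E (ApoE, 5 arrays), ApoE-Stab1-KO mice that also lacked stabilin-1 (AS1, 3 arrays) and ApoE-Stab2-KO mice that also lacked stabilin-2 (AS2, 6 arrays). The macrophages themselves are not labelled as knockouts, and the labels give no age of the donors or of the marrow mice. The labels do not say whether plasma was pooled or whether replicates were separate cultures. A p-value here therefore reflects array-to-array spread, part of which may be technical.

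Immediate early genes are switched on by signals that reach the nucleus through existing proteins, among them the MAP kinases that activate serum response factor (SRF) and its ETS partners. Their products are transcription factors that then set a later wave of genes. EGR proteins are zinc finger factors, FOS and JUN proteins pair through leucine zippers to form the AP-1 complex, ATF3 is a stress-induced leucine zipper factor, and MYC drives growth and ribosome production. In macrophages these genes respond to M-CSF, to microbial products and to lipids. The present values describe cells after 48 hours with plasma and not the first hours of a response.

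All values are log2 expression values after RMA (robust multi-array average), so a difference of 1 is a doubling, and values of different genes are not compared with each other. Tests are from limma on all 24705 rows with Benjamini-Hochberg adjustment, and "rose" or "fell" is used below an adjusted p of 0.05. Macrophage markers were measured in every group: of 10 such genes 9 had a row. Their summed linear level, which is set only against the same sum in other groups, was 21763 to 24264 in ApoE, 28161 to 28814 in WT, 26195 to 29171 in AS1 and 23552 to 24649 in AS2. Of these 9 genes 7 fell and 1 rose with ApoE against WT plasma, 7 rose with AS1 against ApoE plasma, and 3 rose and 2 fell with AS2 against ApoE plasma. The shares of all rows called in these comparisons, to set beside all marker counts of this paragraph, were 16.9%, 16.5% and 15.6%. Arrays of a group correlated at a mean r of 0.9940 to 0.9965 across rows, which are not independent replicates. The column of ApoE replicate 1 differed in form, with 24162 distinct values where every other array had 7087. ApoE replicates 2 and 5 had stood apart in an earlier look at these data. Member calls, and gene list counts in the comparisons with ApoE, are also given without them where they differ. Marker counts and the counts of small nucleolar and Cajal body RNAs were not refitted without them. Markers of neutrophils and their precursors stood apart in AS1, where all 10 were higher than with ApoE plasma and their summed linear level was 13345 to 15743, against 3957 to 8518 in ApoE, 4049 to 4806 in WT and 2198 to 3707 in AS2. Of 6 markers of mast cells, basophils and eosinophils 4 were also higher in AS1 than in ApoE, as were 2 of 4 B cell markers. The summed level of 6 endothelial markers was 518 to 574 in WT, 496 to 623 in ApoE, 681 to 882 in AS1 and 203 to 244 in AS2, and 3 of the 6 fell with AS2 against ApoE plasma. Pecam1 was the highest of the 6 in every group, so it weighs most in this sum. Markers of fibroblasts, of T and NK cells and of erythroid cells had summed levels of at most 174, 112 and 118 on any array. The part of other cell types in the differences given below was not tested, and in these bulk samples fewer cells of a type and less RNA per cell cannot be told apart.

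The 10 genes did not move as a block. Over the 4 groups, 8 of 10 differed by limma's moderated F test, where 30.2% of all rows did, and Egr3 and Fosb did not pass (adjusted p = 0.133 and 0.541). With ApoE against WT plasma, Jun, Myc and Atf3 rose and Fos and Junb fell, 5 of 10 genes against 16.9% of all rows. In AS1 relative to ApoE, Egr1, Jun, Atf3 and Myc fell and no member rose, 4 of 10 genes against 16.5% of rows. In AS2 relative to ApoE, Egr2, Fos, Junb and Myc rose and Egr1, Fosl2 and Jun fell, 7 of 10 genes against 15.6% of rows. The median size of the difference, without its sign, was 0.29, 0.15 and 0.33 over the members in these 3 comparisons and 0.072, 0.079 and 0.062 over all rows. The ApoE arrays enter all 3 comparisons, and ApoE against WT with the opposite sign. A deviation of those arrays alone would thus appear as a rise with ApoE plasma and a fall with AS1 and AS2 plasma, or the reverse. A change with ApoE plasma and its reversal are therefore not independent results.

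**Figure D1:**
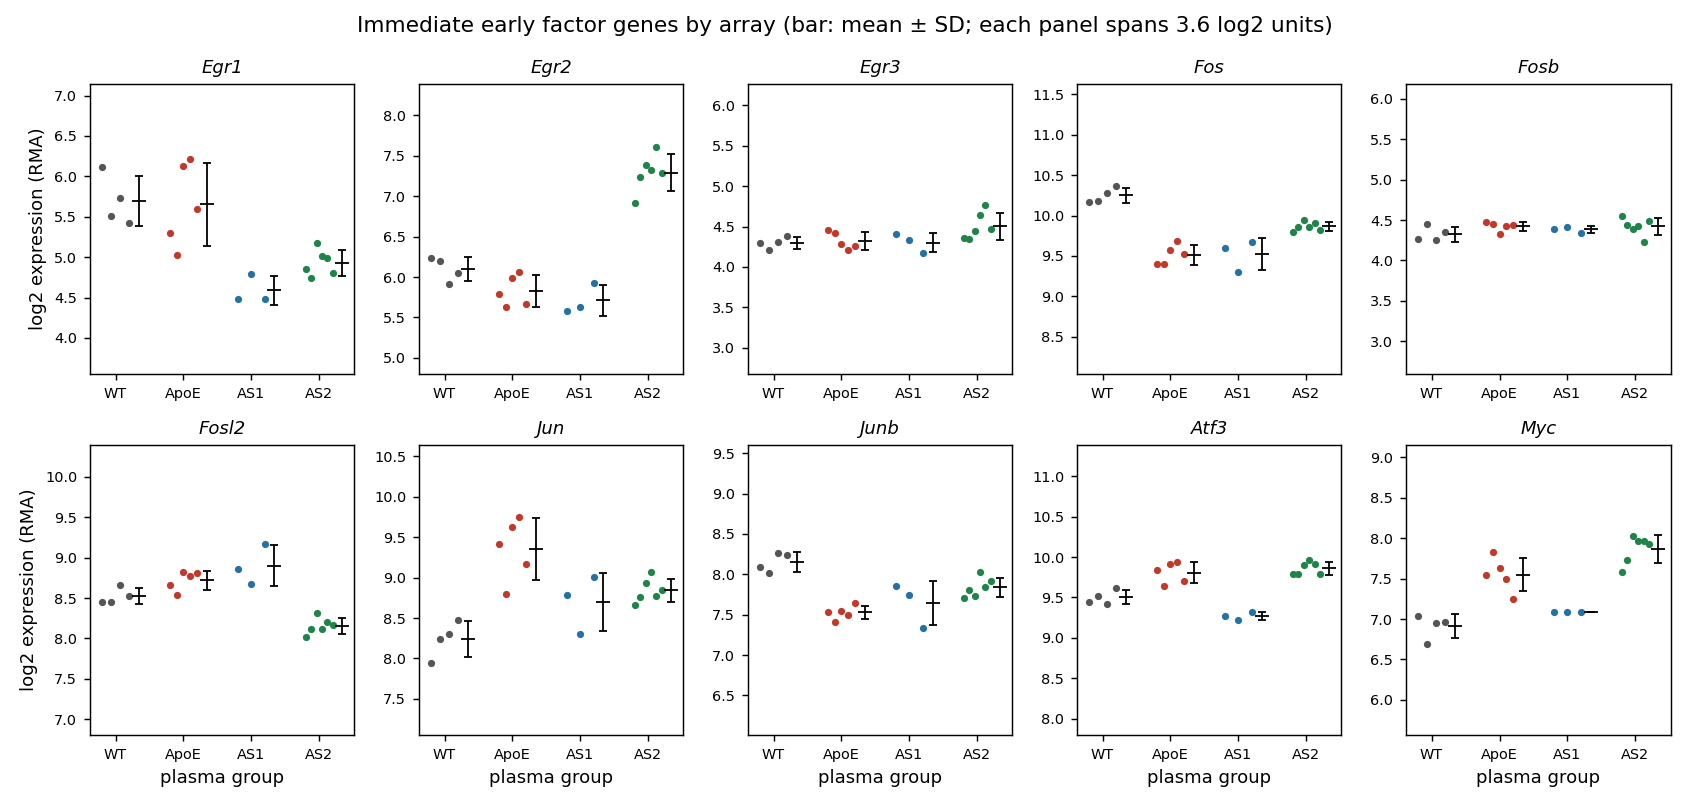
Each panel plots the log2 expression of 1 gene (vertical axis, of equal span in every panel) in the 4 plasma groups (horizontal axis), with 1 point per array and the group mean ± SD as a bar. The 6 AS2 arrays of Egr2 lie between 6.92 and 7.61, above every other array, and the 4 WT arrays of Fos lie between 10.17 and 10.37, also above every other array.

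Egr2, also known as Krox20, encodes an EGR factor best known for myelination and also used in myeloid differentiation, and it had the largest rise of the set. It was 6.23, 6.19, 5.91 and 6.05 in the WT arrays and 5.78, 5.62, 5.98, 6.07 and 5.67 in the ApoE arrays. The AS1 arrays read 5.58, 5.62 and 5.93, and the AS2 arrays ran from 6.92 through a median of 7.30 to 7.61. All 6 AS2 arrays were thus above all 12 others, and WT, ApoE and AS1 overlapped. Against ApoE plasma Egr2 rose with AS2 plasma by 1.47 ± 0.11 (SE) log2 units, a 2.76-fold difference (limma adjusted p = 4.42e-08). Against AS1 and WT plasma it rose by 1.58 ± 0.13 and 1.20 ± 0.12 (limma adjusted p = 1.21e-07 and 7.96e-07). The other neighbours in the order of levels, WT above ApoE above AS1, did not differ past the threshold (adjusted p = 0.17 and 0.698).

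The CArG box (CC, then 6 A or T, then GG) is the site that SRF binds. Among the 7 members whose promoters were searched, Egr2 alone had it within 250 bases before a start. Egr1, Egr3 and Myc were not searched, and a box farther than 250 bases from a start would be missed in any member. RefSeq sequence on GRCm38.p6 was searched on both strands in the 250 bases before each start. A CArG box stood in that window at 4 of the 5 listed Egr2 starts and at no listed start of Fos, Jun, Junb, Fosb, Fosl2 or Atf3; 1.47% of all 32851 promoter windows hold one. The same box accounts for 3 of these 4 starts, which lie close together, so there are 2 different boxes. They are shown with 10 bases on each side, the box in capitals, at chr10:67537484-67537513 and chr10:67537787-67537816 on the plus strand.
Egr2 upstream box: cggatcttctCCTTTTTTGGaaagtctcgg
Egr2 downstream box: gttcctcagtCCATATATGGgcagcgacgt
A match is a description of the letters and does not show that a factor was bound in these cells.

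Egr1, the founding EGR gene and a classical SRF target, moved differently from Egr2. It was 6.12, 5.51, 5.73 and 5.42 in the WT arrays and 5.30, 5.02, 6.13, 6.22 and 5.60 in the ApoE arrays. AS1 arrays were lower, at 4.49, 4.79 and 4.48, and AS2 arrays ran from 4.74 through 4.92 to 5.18. The AS1 values lay near the median of all array values, 4.37, and carry no detection call. They could not be told from background, so the size of differences that involve AS1 is uncertain. The lower AS2 values overlapped those of AS1, so the size of differences that involve AS2 may be affected as well. The ApoE arrays spread over more than a log2 unit, and the lowest of them lay within the AS2 range, while the AS1 arrays were all below every WT and ApoE array. Against ApoE plasma Egr1 fell by 1.07 ± 0.22 (SE) with AS1 plasma and by 0.73 ± 0.19 with AS2 plasma (limma adjusted p = 0.00244 and 0.0103). The difference between AS2 and AS1, 0.34 with a 95% interval from -0.12 to 0.80, did not pass (adjusted p = 0.336) in the fit of all groups and passed in a fit of those 2 groups alone (adjusted p = 0.037). ApoE and WT means, 5.65 and 5.69, were closer than their spread (95% interval of the difference -0.47 to 0.39). The fall with AS2 against WT plasma (0.77 ± 0.20, limma adjusted p = 0.01) lost its call without WT replicate 1, where the difference was -0.62 (adjusted p = 0.0513).

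Egr3, the third EGR member, stayed near the median of all array values, which was 4.37. It ranged from 4.17 to 4.77 over the 18 arrays, with the 2 highest values, 4.64 and 4.77, both in AS2 arrays. No pair of groups passed the threshold. Its 95% interval for AS2 against ApoE was 0.019 to 0.34. Values of this size could not be told from background with the deposited values, which carry no detection call.

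The FOS genes went in different directions. Fos encodes the FOS partner of AP-1 that is induced first and lasts shortest. The WT arrays read 10.17, 10.18, 10.28 and 10.37, the ApoE arrays 9.39, 9.40, 9.57, 9.69 and 9.52, and the AS1 arrays 9.60, 9.29 and 9.67. In AS2 the lowest, median and highest arrays were 9.80, 9.86 and 9.94. The groups therefore formed 3 levels without overlap, with WT highest, AS2 between, and ApoE and AS1 together at the bottom. With ApoE against WT plasma Fos fell by 0.73 ± 0.074 (SE) log2 units, 1.66-fold (limma adjusted p = 1.23e-06). With AS2 against ApoE plasma it rose by 0.35 ± 0.066 (limma adjusted p = 0.00098) and remained 0.39 below WT (adjusted p = 0.000647). The AS1 and ApoE means differed by 0.0067, with a 95% interval from -0.16 to 0.18.

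Fosl2, which encodes the longer-lived FOS relative FRA2, had another order. It was 8.46, 8.46, 8.66 and 8.53 in WT, 8.66, 8.54, 8.82, 8.78 and 8.81 in ApoE, and 8.86, 8.67 and 9.18 in AS1. AS2 arrays ran from 8.02 through 8.14 to 8.32, below all other arrays. With AS2 plasma Fosl2 fell by 0.57 ± 0.079 (SE) against ApoE and by 0.75 ± 0.092 against AS1 (limma adjusted p = 4.43e-05 and 1.02e-05), and it was also below WT (0.37 ± 0.084 lower, adjusted p = 0.00393). AS1 was above WT by 0.38 ± 0.10 (limma adjusted p = 0.0223), a call that was lost when WT replicate 1 (adjusted p = 0.0614), AS1 replicate 1 (0.0516) or AS1 replicate 3 (0.158, difference 0.24) was left out and with the 2 groups alone (0.105). AS1 against ApoE, at 0.18, did not pass (adjusted p = 0.265), but passed without AS1 replicate 2 (0.30, adjusted p = 0.0491).

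Fosb, a FOS relative known from neurons, ranged from 4.23 to 4.55, close to the array median of 4.37. All 4 groups overlapped, and no pair passed. The 95% interval of AS2 against ApoE was -0.11 to 0.11.

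The 2 JUN genes moved against each other. Junb encodes a JUN protein that often opposes JUN at growth genes. It was 8.09, 8.01, 8.27 and 8.23 in WT, 7.53, 7.41, 7.55, 7.50 and 7.65 in ApoE, and 7.85, 7.75 and 7.34 in AS1. The AS2 arrays ran from 7.71 through 7.82 to 8.03. All ApoE arrays were below all WT and all AS2 arrays, whereas AS1 spanned the ApoE range. Junb fell by 0.62 ± 0.092 (SE) with ApoE against WT plasma (limma adjusted p = 8.22e-05) and rose by 0.31 ± 0.083 with AS2 against ApoE plasma (limma adjusted p = 0.0143). It was below WT with AS1 plasma (-0.50, adjusted p = 0.0041, and 0.0517 in a fit of these 2 groups alone) and with AS2 plasma (-0.31, adjusted p = 0.0179). The last call was lost without WT replicate 3 or 4 (adjusted p = 0.0714 and 0.0628).

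Jun encodes the main activating partner of FOS and also responds to JNK and to amino acid stress. The WT arrays were 7.95, 8.24, 8.30 and 8.47, and the ApoE arrays 9.42, 8.80, 9.63, 9.75 and 9.17. AS1 arrays read 8.78, 8.30 and 9.01, and AS2 arrays ran from 8.67 through 8.81 to 9.07. ApoE was highest but spread over nearly a log2 unit, and its lowest array lay within the AS1 and AS2 ranges. Jun rose by 1.11 ± 0.17 (SE) with ApoE against WT plasma, 2.16-fold, without overlap of the arrays (limma adjusted p = 0.000134).

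Against ApoE plasma Jun fell by 0.66 ± 0.19 with AS1 and by 0.51 ± 0.16 with AS2 plasma (limma adjusted p = 0.0212 and 0.0315). Both falls were near the threshold. The AS1 call was lost when ApoE replicate 3 (adjusted p = 0.0514), ApoE replicate 4 (0.0518) or AS1 replicate 2 (0.152) was left out and with the 2 groups alone (0.122). The AS2 call was lost without any of ApoE replicates 1, 3 and 4 or AS2 replicates 1, 2, 5 and 6 (adjusted p from 0.0532 to 0.0977). AS2 stayed above WT by 0.60 ± 0.17 (limma adjusted p = 0.0156, and 0.0705 without WT replicate 1), and AS1 against WT did not pass (0.46, adjusted p = 0.19).

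The 250 bases before the only RefSeq start of each of Fos, Junb and Jun are shown as a description. They lie at chr12:85473640-85473889 on the plus strand, chr8:84978749-84978998 on the minus strand and chr4:95052223-95052472 on the minus strand of GRCm38.p6. Capitals mark the TGACG core of cyclic AMP response elements, the TATA box (TATAAA) and the JUN promoter element TGACATCA, all searched on both strands.
Fos: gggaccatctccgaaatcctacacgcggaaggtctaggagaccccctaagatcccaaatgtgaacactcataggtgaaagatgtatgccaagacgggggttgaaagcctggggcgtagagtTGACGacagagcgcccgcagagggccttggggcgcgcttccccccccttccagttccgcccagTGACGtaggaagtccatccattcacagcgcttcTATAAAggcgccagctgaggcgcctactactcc
Junb: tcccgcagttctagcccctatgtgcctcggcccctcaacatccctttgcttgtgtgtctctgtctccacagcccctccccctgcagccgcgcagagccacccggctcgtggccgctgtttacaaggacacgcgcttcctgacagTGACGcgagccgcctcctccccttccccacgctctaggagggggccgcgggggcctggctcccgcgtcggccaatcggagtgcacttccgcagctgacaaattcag
Jun: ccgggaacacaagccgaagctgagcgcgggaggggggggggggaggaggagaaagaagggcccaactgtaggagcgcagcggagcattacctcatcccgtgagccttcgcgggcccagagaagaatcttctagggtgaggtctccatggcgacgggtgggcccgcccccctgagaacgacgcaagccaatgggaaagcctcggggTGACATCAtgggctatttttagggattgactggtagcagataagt
The TGACG core stood at 129 and 66 bases before the start of Fos and at 106 bases before that of Junb, and was absent from the Jun window. It also stood before starts of Egr2, Fosb and Atf3, and 17.8% of all promoter windows hold it. Of these genes, Atf3 rose with ApoE against WT plasma, as Jun did, and Egr2 and Fosb did not pass. A link between these letters and the differences was not tested. The TATA box of Fos began 33 bases before the start (12.4% of windows), and TGACATCA began 45 bases before the start of Jun (2.93%). The full element TGACGTCA (1.55% of windows), the AP-1 site TGANTCA (6.75%) and the EGR site GCGTGGGCG (0.536%) were in none of the windows of the 7 members searched, and the E box CACGTG (6.02%) was at 1 start of Egr2.

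**Figure D2:**
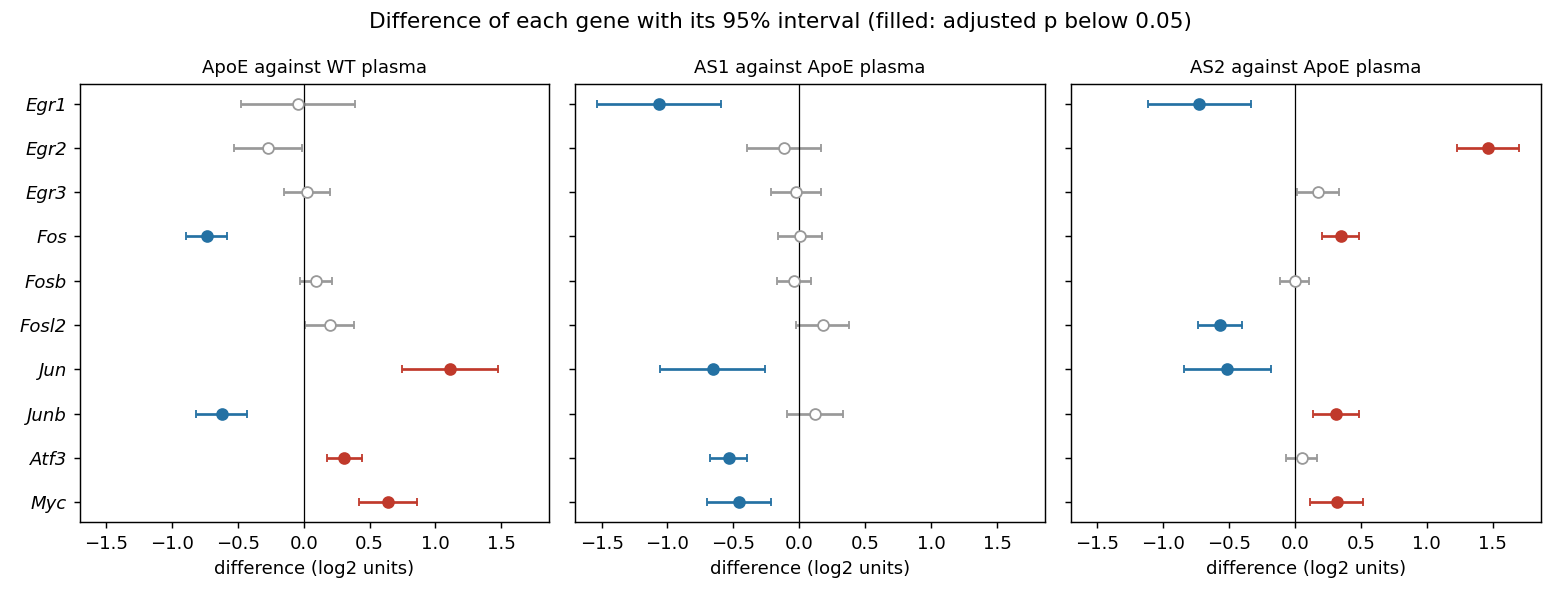
Differences between plasma groups for each gene (vertical axis) are plotted in log2 units (horizontal axis) with the 95% interval from limma, with a panel each for ApoE minus WT, AS1 minus ApoE and AS2 minus ApoE. Filled points passed the adjusted threshold, red above and blue below 0; Egr2 with AS2 plasma, at 1.47, is the point farthest from 0.

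Atf3 encodes a stress-induced factor that pairs with JUN and restrains inflammatory genes. Its values were 9.45, 9.52, 9.42 and 9.61 in WT, 9.84, 9.64, 9.91, 9.94 and 9.70 in ApoE, and 9.27, 9.22 and 9.32 in AS1. In AS2 they ran from 9.79 through 9.85 to 9.96. ApoE and AS2 were high and overlapped, WT was between, and AS1 was lowest, with no overlap between these levels. Atf3 rose by 0.31 ± 0.063 (SE) with ApoE against WT plasma (limma adjusted p = 0.00174) and fell by 0.54 ± 0.068 with AS1 against ApoE plasma (limma adjusted p = 3.05e-05). AS2 and ApoE differed by 0.051, with a 95% interval from -0.068 to 0.17. AS1 was 0.23 below WT, and the adjusted p of 0.0525 became 0.0271, 0.0447 and 0.0487 without ApoE replicate 2, 4 or 5, and 0.0136 without both 2 and 5.

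The partners of ATF3 in the stress response did not follow Atf3 in every comparison. This list holds 11 genes, among them Atf4, the main translationally controlled stress factor, Ddit3, which encodes CHOP, and Sesn2, a stress-induced brake on growth signalling. With ApoE against WT plasma 8 of 11 rose and 0 fell (median 1.11, against -0.0036 over all rows), with Ddit3 at 1.86 ± 0.12 (SE) and Atf4 at 1.48 ± 0.096. Of the same 11 genes, 8 fell with AS1 against ApoE plasma and 0 rose (median -0.92 against 0.0019), with Ddit3 at -1.51 and Atf4 at -0.96. All 11 fell with AS2 against ApoE plasma (median -1.09 against -0.0024), with Ddit3 at -1.71 and Sesn2 at -1.20, while Atf3 stood 0.051 above its ApoE level. Of all rows, 16.9%, 16.5% and 15.6% were called in these 3 comparisons. Without ApoE replicates 2 and 5, 7 of the 11 rose with ApoE against WT plasma, and the other counts were 8 and 11 as before.

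Myc encodes a growth-promoting transcription factor that M-CSF induces in macrophages. It was 7.03, 6.69, 6.95 and 6.97 in WT, 7.55, 7.83, 7.63, 7.50 and 7.25 in ApoE, and 7.09 in each of the 3 AS1 arrays (SD 0.0017). The AS2 arrays ran from 7.58 through 7.95 to 8.03. WT and AS1 were low and ApoE and AS2 high, with no array of the low groups reaching either high group. Myc rose by 0.64 ± 0.11 (SE) with ApoE against WT plasma (limma adjusted p = 0.000254) and fell by 0.46 ± 0.11 with AS1 against ApoE plasma (limma adjusted p = 0.00889). AS2 was 0.96 ± 0.10 above WT and 0.78 ± 0.11 above AS1 (limma adjusted p = 1.82e-06 and 4.82e-05). AS2 was also 0.32 ± 0.095 above ApoE (limma adjusted p = 0.0294), with overlap of the arrays, and this call was lost without ApoE replicate 1, 4 or 5 or AS2 replicate 3, 4, 5 or 6 (adjusted p from 0.0563 to 0.0884; 0.24 without ApoE replicate 5) and with the 2 groups alone (0.0645).

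MYC target genes, a list of 20 genes of ribosome production, nucleotide and polyamine synthesis and iron uptake, are set beside Myc. With ApoE against WT plasma 12 of 20 rose and 0 fell (median 0.42), with the cell cycle kinase gene Cdk4 at 0.78 ± 0.070 (SE) and the transferrin receptor gene Tfrc at 0.63 ± 0.075. In AS1 relative to ApoE 14 of 20 fell and 0 rose (median -0.51), with Cdk4 at -0.70 and the nucleolar gene Nop58 at -0.96. In AS2 relative to ApoE 1 rose, 3 fell and 16 did not pass (median -0.043): the nucleolar gene Nop56 rose by 0.29, and Tfrc and Cdk4 fell by 1.22 and 0.43. With AS2 against WT plasma 12 rose and 1 fell, and with AS2 against AS1 plasma 15 rose and 1 fell. With AS1 against WT plasma 0 rose and 2 fell (median 0.049). Over all rows the share called was 16.9%, 16.5%, 15.6%, 17.8%, 22.1% and 9.48% in these comparisons, in the order given. The 4 of 20 called for AS2 against ApoE and the 2 of 20 for AS1 against WT are near that share. Without ApoE replicates 2 and 5, 15 rose and 0 fell for ApoE against WT, 0 rose and 15 fell for AS1 against ApoE, and 1 rose and 4 fell for AS2 against ApoE. Among 12 partners in the MYC network, 1 rose and 2 fell with ApoE against WT plasma, including the MYC antagonist gene Mxd4 at -1.20. With AS1 against ApoE plasma 4 rose and 1 fell, including the antagonist gene Mxd1 at 1.01, and with AS2 against ApoE plasma 3 rose and 1 fell, with Mxd4 at 0.56 and Mxd1 at -0.33. The 3 of 12 partners called for ApoE against WT are near the 16.9% of all rows. Without ApoE replicates 2 and 5, 0 partners rose and 2 fell for ApoE against WT, and 4 rose and 0 fell for AS2 against ApoE.

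In the other pairs of groups, 4 of 10 members passed for AS1 against WT (9.48% of rows), 8 of 10 for AS2 against WT (17.8%) and 5 of 10 for AS2 against AS1 (22.1%). With AS1 against WT plasma Fosl2 rose and Egr1, Fos and Junb fell. With AS2 against WT plasma Egr2, Jun, Atf3 and Myc rose and Egr1, Fos, Fosl2 and Junb fell. Between the stabilin groups, Egr2, Myc, Atf3 and Fos were higher with AS2 than with AS1 plasma and Fosl2 was lower. The Atf3 difference there was 0.59 ± 0.066 (SE) and that of Fos 0.34 ± 0.078 (limma adjusted p = 3.66e-06 and 0.0032). Neutrophil markers differed between AS2 and AS1 as well, all 10 being lower with AS2 plasma, and 6 of 9 macrophage markers were lower too. Against WT plasma, AS2 had 6 of 9 macrophage markers and 4 of 10 neutrophil markers lower and 1 neutrophil marker higher, and AS1 had 9 of 10 neutrophil markers higher and 1 of 9 macrophage markers lower. Their part in these differences was not tested.

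The upstream genes were mixed in direction, and the shares of all rows to set beside their counts are 16.9% for ApoE against WT, 16.5% for AS1 against ApoE and 15.6% for AS2 against ApoE. The list of 9 SRF and ETS activators also holds Creb1 and Crem, genes of factors that bind cyclic AMP response elements. Of these 9 genes, 2 rose and 4 fell with ApoE against WT plasma. The fallen genes include Srf itself at -0.46 ± 0.071 (SE), the ETS gene Elk3 at -0.47 and Creb1 at -0.22. With AS1 against ApoE plasma 3 rose and 2 fell, with the SRF coactivator gene Mrtfa at 0.44, Srf at 0.32 and Ets2 at -0.93. With AS2 against ApoE plasma 2 rose and 3 fell, with Elk3 at 0.57 and Ets2 at -0.80. Crem was also among the 3 that fell, with means of 4.33 in AS2 and 4.59 in ApoE, near the array median of 4.37. Without ApoE replicates 2 and 5 these counts were 1 and 3 for ApoE against WT and 3 and 1 for AS1 against ApoE. Of 18 genes of the M-CSF receptor and MAP kinase cascade 12 had a row. In them, 3 rose and 3 fell with ApoE against WT plasma, including the receptor gene Csf1r at -0.39 and the p38 kinase gene Mapk14 at -0.60. With AS1 against ApoE plasma 2 rose and 1 fell, with Mapk14 at 0.47 and Csf1r at 0.35, and with AS2 against ApoE plasma 3 rose and 3 fell, with Mapk14 at 0.33 and Braf at -0.61. The 3 of 12 called for AS1 against ApoE are near the share of all rows. Without ApoE replicates 2 and 5, 4 rose and 3 fell for AS2 against ApoE.

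Feedback inhibitors of the cascade were higher with AS2 than with AS1 plasma in part of the list. Of 13 genes of dual-specificity phosphatases and Sprouty-type inhibitors, 7 were higher and 0 lower with AS2 than with AS1 plasma (median 0.50), where 22.1% of all rows were called. Against ApoE plasma 5 rose and 1 fell with AS2 (median 0.19), with the inhibitor gene Spred1 at 0.87 ± 0.072 (SE) and the phosphatase gene Dusp1 at 0.69 ± 0.12; without ApoE replicates 2 and 5 it was 4 and 1. AS1 plasma gave 1 higher and 4 lower than ApoE plasma (median -0.12), with Dusp4 at -0.78 and Dusp16 at -0.75, and without ApoE replicates 2 and 5 it was 0 and 5. With ApoE against WT plasma 2 rose and 1 fell, with Dusp4 at 0.68 and Spred1 at -0.33, and these 3 of 13 are near the 16.9% of all rows. In the list of EGR relatives and corepressors, Nab2 was the only gene of 4 that passed in these 3 comparisons. Nab2, whose protein binds EGR factors and restrains them, fell by 0.51 ± 0.069 with ApoE against WT plasma, and against ApoE it rose by 0.26 with AS1 and by 0.91 ± 0.062 with AS2 plasma (limma adjusted p = 2.98e-05, 0.0209 and 1.38e-08).

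Other AP-1 relatives and other immediate early genes also moved both ways. Of 12 AP-1 relatives with a row, 1 rose and 5 fell with ApoE against WT plasma (Jdp2, a repressor of AP-1, at 0.53, and Maf at -0.34). The count of fallen genes was 3 without ApoE replicates 2 and 5. With AS1 against ApoE plasma 2 rose and 1 fell (Maf at 0.36 and Jdp2 at -0.34, and 0 fell without ApoE replicates 2 and 5), and these 3 of 12 are near the 16.5% of all rows. With AS2 against ApoE plasma 1 rose and 6 fell (Fosl1, the gene of FRA1, at 0.51, Maf at -0.52 and Jdp2 at -0.64). The Fosl1 means, 4.79 in AS2 and 4.28 in ApoE, lay near the array median of 4.37 and could not be told from background.

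Of 31 further immediate early genes, 7 rose and 10 fell with ApoE against WT plasma. The kinase gene Pim1 rose by 0.94 and the G protein regulator gene Rgs1 by 1.25, and Trib1 and Rgs2 fell by 1.08 and 0.85. AS1 plasma gave 7 higher and 6 lower than ApoE plasma, with Sik1 at 1.12, Rgs2 at 0.90 and Rgs1 at -1.16. AS2 plasma gave 8 higher and 8 lower than ApoE plasma, with Plk2 at 1.33, the antiproliferative gene Btg1 at 1.13, Ier3 at -1.12 and Ptgs2, the gene of cyclooxygenase-2, at -0.48. Without ApoE replicates 2 and 5 the counts of these genes were 7 and 8, 7 and 7, and 8 and 7. The Ptgs2 means, 4.15 in AS2 and 4.64 in ApoE, lay near the array median of 4.37 and could not be told from background. Heat shock genes, which respond to protein damage, had 2 of 10 higher and 0 lower with ApoE against WT and 0 higher and 2 lower with AS1 against ApoE. With AS2 against ApoE plasma 5 were higher and 0 lower, including Hspa1b at 1.22. The Hspa1b mean was 5.23 in AS2 and 4.02 in ApoE, the latter below the array median of 4.37. The 2 of 10 in the first pair of comparisons are near the 16.9% and 16.5% of all rows, and 15.6% of rows were called in the last. Small nucleolar and Cajal body RNAs also moved with the stabilin plasmas. Of 107 rows, 47 fell and 0 rose with AS1 against ApoE plasma, and 34 rose and 1 fell with AS2 against ApoE plasma. With ApoE against WT plasma 6 rose and 4 fell, a smaller share than the 16.9% of all rows. In the other pairs, 1 rose and 33 fell with AS1 against WT, 40 rose and 4 fell with AS2 against WT, and 70 rose and 2 fell with AS2 against AS1 plasma (median 0.78). Their part in the results above was not tested.

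**Figure D3:**
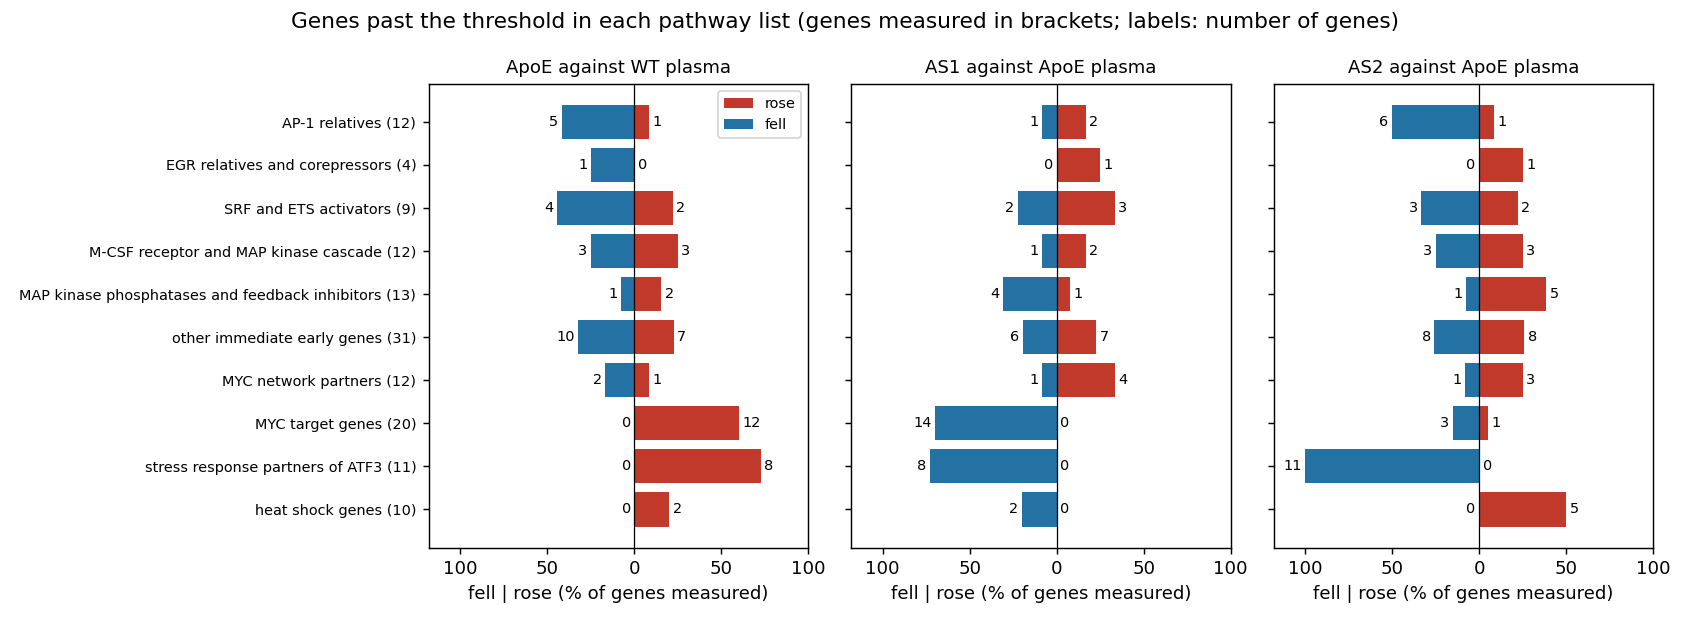
Bars give the percentage of measured genes of each list (vertical axis, number measured in brackets) that fell (blue, left) or rose (red, right) in 3 comparisons, with the number of genes beside each bar. The stress response partners of ATF3 have 8 of 11 genes to the right with ApoE against WT plasma and all 11 to the left with AS2 against ApoE plasma. The list of SRF and ETS activators also holds Creb1 and Crem.

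Between arrays of the same group, the members varied together in few pairs. Egr1 and Jun spread most within groups, with SDs of 0.33 and 0.28 that were above 98.7% and 97.2% of all rows. After each value was centred on its group mean, 1 of 45 pairs passed over the 18 arrays by Pearson's r. Jun and Atf3 had r = 0.83 (permutation p = 4e-05, adjusted p = 0.0018) and rho = 0.79 (permutation p = 0.00055, adjusted p = 0.0247), and r was 0.80 without the 2 arrays farthest from the median of Jun. In both genes ApoE replicates 3 and 4 were the highest ApoE arrays and ApoE replicate 2 the lowest. The same was true of Egr1 and Egr2 but not of the other members, so this order is not particular to Jun and Atf3. Fos with Jun (r = 0.79, permutation adjusted p = 0.0709) and Fos with Fosl2 (r = 0.78, permutation adjusted p = 0.0737) did not pass by r. By rank, Fos with Fosl2 and Egr2 with Atf3 passed (rho = 0.77 and 0.74, both permutation adjusted p = 0.0451). Egr1 with Egr2 had r = 0.50 and did not pass (permutation p = 0.0429, adjusted p = 0.193).

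**Figure D4:**
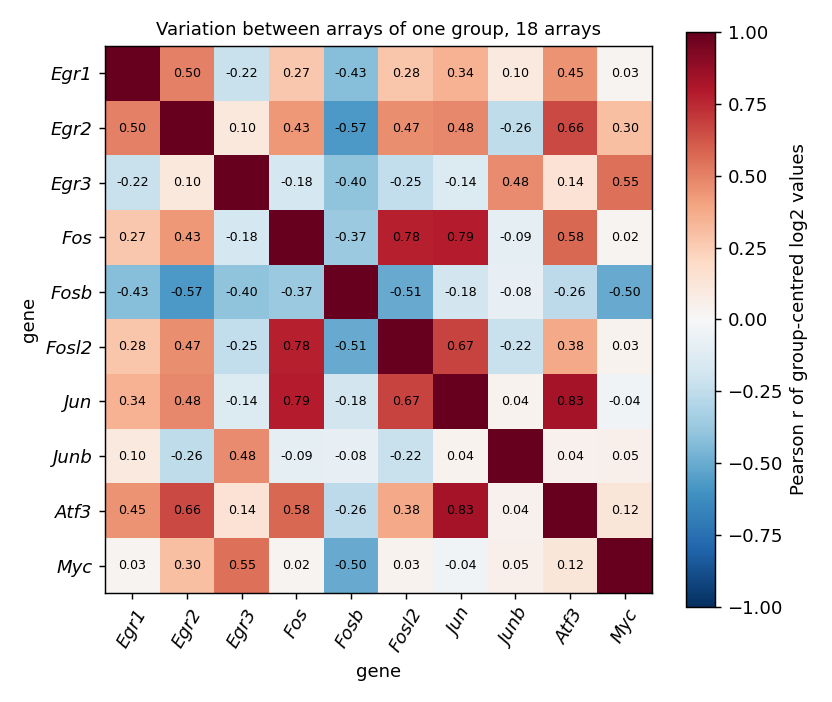
The matrix gives Pearson's r for each pair of the 10 genes (both axes) over 18 arrays after group means were subtracted, from blue (-1) to red (1). Jun with Atf3, at 0.83, has the highest r.

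Rows whose profile over the 18 arrays was most like that of a member are given as a description, by Pearson's r. For members that differed among the groups, this r follows mainly the group means. Egr2 was closest to Peak1 and to the cell fusion gene Dcstamp (r = 0.97 for each). Egr1 was closest to the sterol regulator gene Insig1 (r = 0.89) and Gde1 (0.88). Fos was closest to Procr (0.94) and the amino acid transporter gene Slc16a10 (0.91), and Junb to the cytokine gene Il10 (0.92) and the NF-kB inhibitor gene Nfkbie (0.91). Jun was closest to the chemokine gene Ccl3 (0.95) and Alg2 (0.94), and Fosl2 to Ptgs2 (0.95) and Sh2b2 (0.94). Atf3 was closest to Anxa4 and Fam98a (0.96 for each), and Myc to Cdca7l (0.97) and the mitochondrial folate enzyme gene Mthfd1l (0.95). Egr3 was closest to Dusp15 (0.88) and Dscc1 (0.83), and Fosb to Fbxl13 (0.80) and Pax9 (0.79). Egr3 and Fosb did not differ among the groups past the threshold (F test, adjusted p = 0.133 and 0.541). Both lay near the array median of 4.37, so their r may follow array-to-array scatter near background.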

How the data were processed

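The deposited log2 expression values of 18 Affymetrix arrays were RMA values, as named in the submitters' processing notes, which give no version (probe set definition: not given in the sources used here). RMA equalizes the distributions of arrays, which hides any shift of total RNA. Of 25428 rows, 24705 had exactly 1 gene symbol in the platform annotation and were tested, and 723 were unnamed there. Precision is limited by the number of arrays, since there are no reads to count.

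Group means of all 4 groups were fitted across all genes by limma 3.58.1 in R 4.3.3 (lmFit, eBayes, 14 residual degrees of freedom), with two-sided tests and Benjamini-Hochberg adjustment across rows for each comparison. Intervals are 95% intervals of the moderated fit. Within-group pair correlations used 100000 two-sided permutations of arrays within groups, with adjustment over 45 pairs. Scripts were tested on simulated data.

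Members, lists and markers were chosen with earlier results of these data known. Of 141 list genes 134 had a row, some under a newer symbol. The naming rule took all members, up to 2 list genes per direction with the smallest p, and the 2 most similar rows per member. The search for TGACG, TGACATCA and the TATA box, and the list counts without ApoE replicates 2 and 5, were added after the data were seen. Promoters are RefSeq (GRCm38.p6). Alternatives were array weights, trended robust variance, repeated quantile normalization, median centring, inclusion of unnamed rows, removal of rows with means under the 40th percentile, a single row for each gene, fits of 2 groups, a replicate block, each array left out, and ApoE replicates 2 and 5 left out together.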

Additional observations from a re-analysis of the deposited data

Results flagged for a closer look

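Within groups of 4 to 6 arrays, 30 sets of values were examined for an array far from the rest, and 1 was found. Fosb in ApoE replicate 3 was 4.32, where the other ApoE arrays lay between 4.43 and 4.47. Chance gives about 1 such set in 20. The gap is smaller than the spread of Fosb over the AS2 arrays.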

How the results depend on the processing

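Of 33 member differences past the threshold, 24 kept their sign and their call under every alternative that could be run. For AS1 against WT with the 2 groups alone, 2 members passed rather than 4. The replicate numbers did not pair the arrays: deviations of arrays with the same number correlated at -0.21 to 0.13, and 1 of 18 arrays was closest to an array of its own number. With the replicate number as a replicate block, Fosl2 gained a call for ApoE against WT (0.18, adjusted p = 0.0425) and for AS1 against ApoE (0.20, 0.0422), Jun gained one for AS1 against WT (0.54, 0.0373), and Junb and Myc lost theirs for AS2 against ApoE (0.29, 0.0533 and 0.30, 0.104). Signs turned only in differences that did not pass. For ApoE against WT, Egr1 was 0.11 with array weights, 0.19 without both ApoE replicates 2 and 5, and -0.18 to 0.12 with single arrays left out; Egr3 was -0.011 with array weights and -0.0081 to 0.056. For AS1 against ApoE, Egr3 was 0.016 with array weights, 0.016 with the replicate block and -0.076 to 0.044 with single arrays left out, and Fos was -0.0098 with array weights, -0.029 without both ApoE replicates and -0.069 to 0.12. For AS2 against ApoE, Fosb was 0.018 with array weights, 0.013 without both ApoE replicates and -0.027 to 0.036, and Atf3 was -0.0065 and -0.040. With single arrays left out, Egr3 for AS1 against WT ran from -0.050 to 0.070 and Jun for AS2 against AS1 from -0.052 to 0.30.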
